A study of Mus musculus with 20 samples.

Results

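The vesicular glutamate transporters are the 3 genes Slc17a6, Slc17a7 and Slc17a8, which encode VGLUT2, VGLUT1 and VGLUT3. They were found by symbol among the 46078 genes counted in each library, and all 3 passed the filter on low counts in every comparison. The RNA came from brain tissue of aged (18 months) wild-type C57BL/6J mice, 7 weeks after DH stroke, in which occlusion of the distal middle cerebral artery is combined with hypoxia. Mice were injected subcutaneously with PBS (vehicle) or with 4 g/kg HPBCD (hydroxypropyl-β-cyclodextrin, a ring of sugars that takes up cholesterol), 3 times per week for 6 weeks from week 1 after the stroke. Tissue next to the infarct (peri-infarct) and the matching tissue of the other hemisphere (contralateral) were sequenced as 4 groups of 5 libraries. All animals had a stroke, so the contralateral groups are not tissue of animals without one, and the peri-infarct piece was cut by hand around the removed infarct. Same-numbered libraries of a treatment carry the same animal identifier.

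A vesicular glutamate transporter moves glutamate from the cytosol into synaptic vesicles, driven by the proton gradient of the vesicular proton pump, and a neuron needs one to release glutamate. VGLUT1 is the main transporter of excitatory neurons of the cortex and hippocampus, and VGLUT2 that of the thalamus, hypothalamus and brainstem, with some expression in cortical neurons. VGLUT3 is found in scattered neurons that also release another transmitter, such as cholinergic interneurons of the striatum, serotonin neurons and some CCK interneurons. The family was chosen by the size of the Slc17a6 change in peri-infarct tissue and in the interaction of region and treatment, so all values of Slc17a6 are given as a description with no test. Slc17a7 and Slc17a8 came in by family, and their adjusted p-values are from fits over all genes.

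Slc17a6 (ENSMUSG00000030500) lies on chromosome 7, 51622006 to 51671119, plus strand, in GRCm38. Slc17a7 (ENSMUSG00000070570) lies on the same chromosome, 45163949 to 45176142, plus strand, and Slc17a8 (ENSMUSG00000019935) on chromosome 10, 89574020 to 89621253, minus strand. No exon of the 3 overlaps an exon of another gene, and their exons together span 5399, 5392 and 4720 bp. The 250 bases before the RefSeq start (GRCm38.p6) nearest to the start of each gene are shown because the 3 genes, which load the same transmitter, differed in level and in change. Capitals mark the GC box, GGGCGG on either strand, a sequence to which Sp1-type factors can bind.
Slc17a6, chr7:51621580-51621829, plus strand: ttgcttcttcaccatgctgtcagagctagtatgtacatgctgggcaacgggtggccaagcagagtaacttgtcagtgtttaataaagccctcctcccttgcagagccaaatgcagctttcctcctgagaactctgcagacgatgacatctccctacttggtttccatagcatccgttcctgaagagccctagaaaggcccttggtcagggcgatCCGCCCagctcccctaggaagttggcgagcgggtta
Slc17a7, chr7:45163671-45163920, plus strand: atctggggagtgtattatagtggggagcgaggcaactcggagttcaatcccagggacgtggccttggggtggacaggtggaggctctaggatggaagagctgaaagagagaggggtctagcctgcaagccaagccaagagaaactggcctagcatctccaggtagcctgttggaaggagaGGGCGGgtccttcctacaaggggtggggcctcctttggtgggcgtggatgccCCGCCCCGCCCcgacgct
Slc17a8, chr10:89621250-89621499, minus strand: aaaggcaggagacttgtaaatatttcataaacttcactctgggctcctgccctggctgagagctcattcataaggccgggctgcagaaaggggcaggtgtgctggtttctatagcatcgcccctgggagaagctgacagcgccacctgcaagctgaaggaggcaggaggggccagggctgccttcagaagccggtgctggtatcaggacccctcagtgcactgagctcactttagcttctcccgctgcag
The Slc17a7 window held 3 GC boxes, 2 of which overlap, and the Slc17a6 window held 1. No match was in the Slc17a8 window. Of all 32851 promoter windows cut to this length, 32.7% held the motif. TATAAA, searched on both strands, was in none of the 3 windows and in 12.4% of all windows.

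Libraries held 14445021 to 22171627 gene counts, at which 3 counts, taken as the floor, correspond to 0.135 to 0.208 CPM (counts scaled to a common library size, with TMM factors over the 20 libraries). Every library was above the floor for each of the 3 genes, the lowest being 42 counts of Slc17a6. Pan-neuronal and cortical excitatory markers were detected in every group. The labels of treatment were checked against a list of genes to which the study's text gives a direction under HPBCD in peri-infarct tissue. Of the 32 listed genes tested, 0 moved in the listed direction and 32 in the opposite one, 18 of them past the edgeR threshold. A treatment direction below is therefore that of the libraries labelled HPBCD. By DESeq2, 3996 genes differed between the regions in libraries labelled vehicle and 9148 in those labelled HPBCD. The former is the nearer to the number that the study's text gives for this tissue without HPBCD. The study's figure of those genes also names a limit on the fold change, which was not applied here. The numbers are therefore not like for like and are no check of the labels. Whether the treatment labels were exchanged was not tested, and an exchange would turn the sign of every treatment difference and assign the region differences given for HPBCD animals to vehicle animals, and the reverse. Single libraries stood apart too. Vehicle contralateral replicate 1 had a summed level of 3938 CPM over 10 striatal marker genes, against 236 to 318.7 CPM in the other 4 libraries of its group. Its reactive astrocyte markers summed to 304.5 CPM, within the 182 to 394 CPM of the contralateral libraries and below the 750 to 6700 CPM of the peri-infarct ones. HPBCD contralateral replicate 4 had 9.5% of read pairs in no feature and 8.03% ambiguous, with at most 5.86% and 4.16% in the others.

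Slc17a7 was by far the most abundant of the 3 genes. Per kilobase of exon, its mean level was 259.4 ± 45.7 CPM in vehicle contralateral libraries, against 4.54 ± 1.29 CPM for Slc17a6 and 0.932 ± 0.713 CPM for Slc17a8 (SD, n = 5 each). It made up a mean of 97.9% of the summed per-length level of the 3 genes there, 98.47% in vehicle peri-infarct, 97.15% in HPBCD contralateral and 98.05% in HPBCD peri-infarct libraries. What remained was shared differently between regions. The share of Slc17a6 was 1.69 ± 0.254% in vehicle contralateral and 2.53 ± 0.207% in HPBCD contralateral libraries, and 1.05 ± 0.231% and 0.798 ± 0.383% in the peri-infarct libraries of the same treatments (SD, n = 5 each). The share of Slc17a8 was 0.408 ± 0.426% and 0.319 ± 0.0604% contralaterally, and 0.479 ± 0.228% and 1.15 ± 0.743% in peri-infarct libraries. Without vehicle contralateral replicate 1 its vehicle contralateral share was 0.217%. Slc17a8 was below Slc17a6 in all 10 contralateral libraries, with a ratio per length of 0.0859 to 0.761, and in all 5 vehicle peri-infarct libraries, with 0.284 to 0.972 and a median of 0.379, while in HPBCD peri-infarct libraries the ratio was 0.72 to 3.98 with a median of 1.42.

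**Figure D1:**
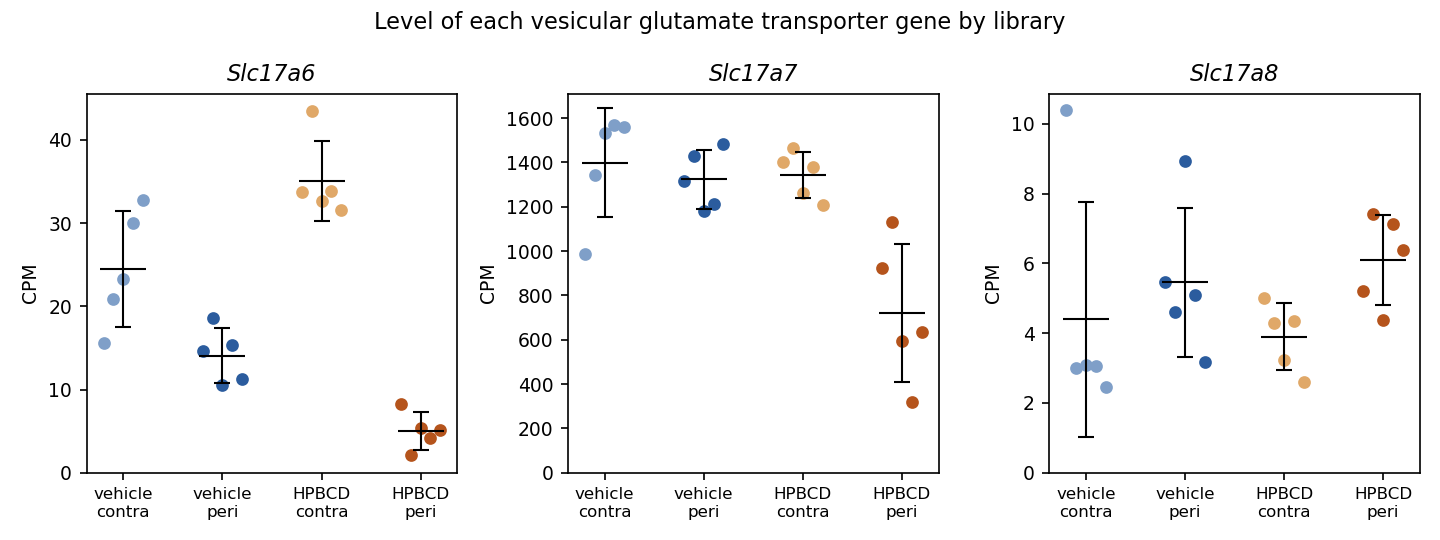
Level of Slc17a6, Slc17a7 and Slc17a8 in CPM (TMM-scaled) in the 4 groups, contralateral and peri-infarct by treatment; each point is 1 library, and bars give the mean ± SD (n = 5). The HPBCD peri-infarct libraries are lowest for Slc17a6 (2.13 to 8.29 CPM), all 5 are below the vehicle peri-infarct libraries for Slc17a7, and 1 vehicle contralateral library is highest for Slc17a8 (10.4 CPM).

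Slc17a7, the cortical and hippocampal transporter gene, had similar levels in 3 of the 4 groups and was lower in peri-infarct tissue of animals labelled HPBCD. Its level was 989, 1345, 1533, 1568 and 1558 CPM in vehicle contralateral replicates 1 to 5, and 1317, 1429, 1179, 1212 and 1485 CPM in vehicle peri-infarct replicates 1 to 5. HPBCD contralateral libraries had 1400, 1465, 1261, 1379 and 1209 CPM, and HPBCD peri-infarct libraries 923.5, 1131, 592.4, 321 and 636.6 CPM. The ranges of the first 3 groups overlap, and all 5 HPBCD peri-infarct libraries lie below every library of the vehicle peri-infarct and of the HPBCD contralateral group. The group is also the most spread, with a mean of 720.9 ± 313.4 CPM (SD, n = 5).

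In animals labelled HPBCD, Slc17a7 was lower beside the infarct than contralaterally by a log2 fold change of -0.89 (SE 0.26, 95% interval -1.46 to -0.31, edgeR adjusted p = 0.0124), to 0.54 of the contralateral level. In this comparison 24.3% of the 16047 genes tested were called lower and 18.3% had groups that did not overlap in this direction, so such a call was common. The peri-infarct library was lower than the contralateral library of the same animal in 5 of 5 animals, by 0.37 to 2.1 on the log2 scale. As the 2 groups do not overlap, any pairing would give this count. Leaving out any 1 library kept the call, with log2 fold changes of -1.13 to -0.72. In vehicle animals the log2 fold change between the regions was -0.09 (SE 0.13, 95% interval -0.36 to 0.18, edgeR adjusted p = 0.644), with 3 animals lower and 2 higher on the peri-infarct side.

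Between treatments, Slc17a7 in peri-infarct libraries labelled HPBCD had a log2 fold change of -0.88 against vehicle (SE 0.27, 95% interval -1.48 to -0.28, edgeR adjusted p = 0.0429). Of the 16224 genes tested here, 9.0% were called lower and 5.97% did not overlap in this direction. The call was close to the threshold: it was lost when vehicle peri-infarct replicate 1, 2, 4 or 5 was left out, or replicate 3 or 5 of the libraries labelled HPBCD, with edgeR adjusted p-values of 0.0638 to 0.102 in those fits, while the log2 fold change stayed between -1.12 and -0.69. In contralateral libraries the change was -0.07 (SE 0.11, 95% interval -0.31 to 0.18, edgeR adjusted p = 0.917). There edgeR called 0 of 15469 genes, with 1224 at an unadjusted p under 0.05, and DESeq2 called 56. The difference of the region effect between the treatments was -0.82 on the log2 scale (SE 0.31, 95% interval -1.46 to -0.18) and did not pass the threshold (edgeR adjusted p = 0.0894). It passed with DESeq2 (adjusted p = 0.0497), with limma voom (adjusted p = 0.0101) and with edgeR without HPBCD peri-infarct replicate 2 (adjusted p = 0.0173).

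Slc17a6, the subcortical transporter gene with low cortical expression, had the widest relative range of levels and was lowest in peri-infarct tissue of animals labelled HPBCD. It had 15.6, 20.8, 23.2, 30 and 32.8 CPM in vehicle contralateral replicates 1 to 5 and 14.6, 18.6, 10.5, 15.4 and 11.3 CPM in vehicle peri-infarct replicates 1 to 5. HPBCD contralateral libraries had 33.8, 43.5, 32.7, 33.9 and 31.5 CPM, and HPBCD peri-infarct libraries 8.29, 2.13, 5.38, 4.14 and 5.13 CPM. The order of the means was HPBCD contralateral (35.1 ± 4.80 CPM), vehicle contralateral (24.5 ± 6.94), vehicle peri-infarct (14.1 ± 3.29) and HPBCD peri-infarct (5.02 ± 2.24; SD, n = 5 each). Neighbours in this order overlap in the 2 contralateral groups and in the 2 vehicle groups, and do not overlap in the 2 peri-infarct groups. In that comparison, which helped choose the family, 5.97% of all genes tested did not overlap in this direction.

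Slc17a6 was lower beside the infarct in both treatments, as a description of the gene that led to this family. The log2 fold change was -0.81 (SE 0.21) in vehicle and -2.80 (SE 0.25) in HPBCD animals, that is 0.57 and 0.144 of the contralateral level. All 10 animals had less on the peri-infarct side, by 0.1 to 1.53 on the log2 scale in vehicle and by 2.01 to 4.29 in HPBCD animals. The interaction, which helped choose the family, was -2.00 (SE 0.35). In peri-infarct tissue, libraries labelled HPBCD had a log2 fold change of -1.49 (SE 0.29) against vehicle, and in contralateral tissue of 0.51 (SE 0.17), so the treatment difference had opposite signs in the regions. Without HPBCD peri-infarct replicate 2, the lowest library, the peri-infarct difference was -1.30 and the interaction -1.78. Among all genes tested, 12 had a more negative log2 fold change between the treatments in peri-infarct tissue, and 15 between the regions in HPBCD animals. The first rank follows from the choice of the family by that change. The second rests on the same HPBCD peri-infarct libraries, so neither is a result.

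Slc17a8, which marks scattered neurons that release glutamate beside another transmitter, was the one member with higher levels beside the infarct. Its levels were low, at 46 to 189 counts per library. It had 10.4, 3.0, 3.08, 3.05 and 2.46 CPM in vehicle contralateral replicates 1 to 5, and 5.46, 4.62, 8.93, 5.09 and 3.16 CPM in vehicle peri-infarct replicates 1 to 5. HPBCD contralateral libraries had 5.0, 4.29, 3.24, 4.34 and 2.60 CPM, and HPBCD peri-infarct libraries 5.22, 7.41, 4.37, 7.13 and 6.37 CPM. The group means ran from 6.10 ± 1.29 CPM in HPBCD peri-infarct over 5.45 ± 2.13 in vehicle peri-infarct and 4.40 ± 3.36 in vehicle contralateral to 3.89 ± 0.959 in HPBCD contralateral libraries (SD, n = 5 each), and all neighbours overlap.

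Slc17a8 rose in peri-infarct against contralateral libraries of HPBCD animals by a log2 fold change of 0.65 (SE 0.21, 95% interval 0.19 to 1.10, edgeR adjusted p = 0.0202), a call that 30.3% of all genes shared. It was higher in 5 of 5 animals, by 0.06 to 1.26 on the log2 scale, and every fit with 1 library left out kept the call. With all 4 groups in 1 fit the change was 0.64 and did not pass (edgeR adjusted p = 0.117). In vehicle animals the change was 0.30 (SE 0.41, 95% interval -0.60 to 1.20, edgeR adjusted p = 0.647). Without vehicle contralateral replicate 1, the library rich in striatal markers, it was 0.91 and passed (edgeR adjusted p = 0.0375), beside 11.1% of all genes called higher in that fit. Between treatments the change was 0.16 in peri-infarct (SE 0.25, 95% interval -0.40 to 0.72, edgeR adjusted p = 0.671) and -0.18 in contralateral libraries (SE 0.37, 95% interval -0.99 to 0.63, edgeR adjusted p = 0.932). The latter became 0.42 without that library, and the interaction went from 0.34 (SE 0.48, edgeR adjusted p = 0.683) to -0.27 (edgeR adjusted p = 0.659).

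**Figure D2:**
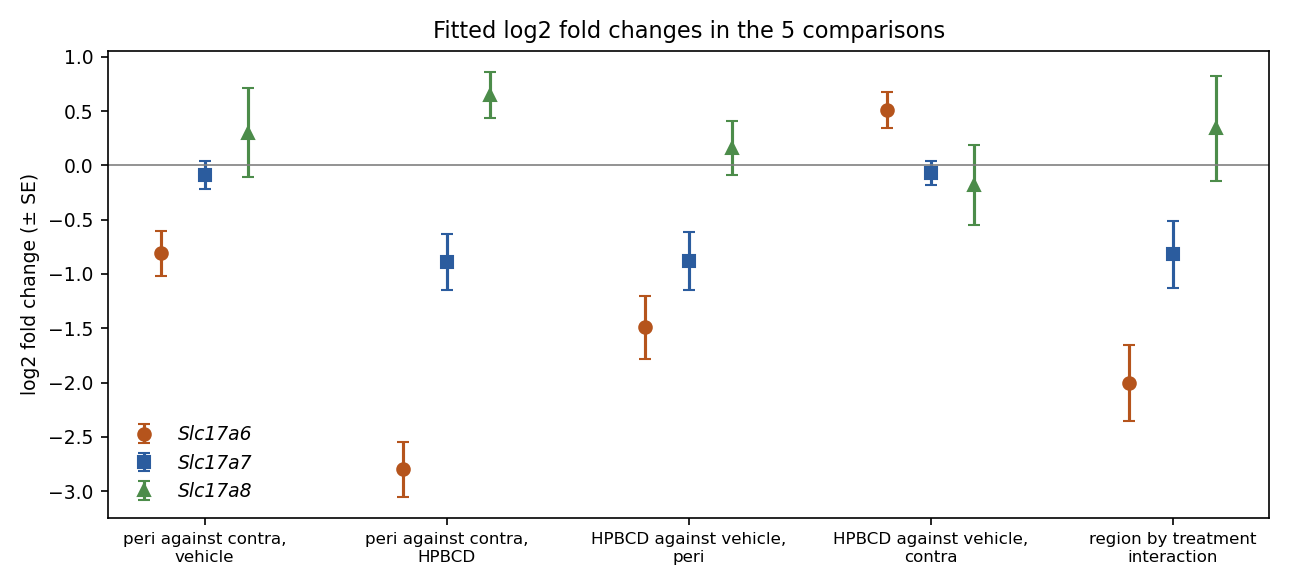
Fitted log2 fold change ± SE (edgeR) of the 3 genes in the 4 comparisons of 2 groups (10 libraries each) and in the interaction (20 libraries). Slc17a6 spans -2.80 to 0.51, Slc17a7 is near -0.9 in both comparisons that contain HPBCD peri-infarct libraries and near 0 in the others of 2 groups, and Slc17a8 is between -0.18 and 0.65. The comparisons share libraries and are not independent of each other.

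The levels of the genes were then set against the neuronal RNA of the same library, since peri-infarct tissue held less of it. The 12 genes of a list expressed by neurons in general, among them Rbfox3, Snap25 and Syn1, were averaged on the log2 scale, which gave 8.48 ± 0.35 (SD, n = 5 in each group) in peri-infarct libraries labelled HPBCD, 9.49 ± 0.05 in their contralateral counterparts, 9.12 ± 0.16 in vehicle peri-infarct and 9.40 ± 0.08 in vehicle contralateral libraries. In tissue RNA, fewer neurons and less RNA per neuron cannot be told apart. Relative to this mean, Slc17a7 stood at 0.89 ± 0.37 in HPBCD peri-infarct and at 0.90 ± 0.07 in HPBCD contralateral libraries, a difference of -0.01 (exact permutation test, two-sided, p = 0.952). That difference was -0.13 to 0.11 with any 1 library left out. In vehicle animals the relative level was higher beside the infarct by 0.22 (exact permutation p = 0.0476, adjusted over 8 such tests 0.148). It was higher in 5 of 5 animals, by 0.02 to 0.55, and the test does not use these pairs. In peri-infarct tissue the libraries labelled HPBCD were lower than vehicle by 0.36 (exact permutation p = 0.0873, adjusted 0.175). The adjusted p of the exact test was 0.0317 for the former without vehicle contralateral replicate 3 and for the latter without HPBCD peri-infarct replicate 2, and 0.0423 for the contralateral difference between the treatments (-0.22) without vehicle contralateral replicate 1. Each of these adjusted values also depends on the other tests of its set.

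Slc17a8 had higher relative levels beside the infarct, though with all libraries no difference passed the threshold after adjustment. In HPBCD animals the relative level was -5.87 ± 0.49 beside the infarct and -7.52 ± 0.32 contralaterally, a difference of 1.65 with no overlap. The exact permutation p of 0.00794 is the smallest that 5 against 5 libraries can give, and adjusted over the 8 tests it was 0.0635. The differences were 0.73 between the regions in vehicle animals (exact permutation p = 0.183, adjusted 0.293) and 0.85 between the treatments in peri-infarct tissue (exact permutation p = 0.0556, adjusted 0.148). Without vehicle contralateral replicate 1 the difference between the regions in vehicle animals was 1.12 (exact permutation, adjusted p = 0.0423). The difference in HPBCD animals was 1.65 without HPBCD peri-infarct replicate 2, and that between the treatments in peri-infarct tissue 1.11 without vehicle peri-infarct replicate 3 (exact permutation, adjusted p = 0.0317 for each). An adjusted p-value here depends on all 8 tests of its set, so it can pass through a change in another test. The difference in HPBCD animals was as large with all libraries, so its lower adjusted p shows no stronger difference. Slc17a6 was also lower relative to the neuronal mean, described without a test. Its relative level was -4.83 ± 0.35 in vehicle contralateral, -5.33 ± 0.25 in vehicle peri-infarct, -4.36 ± 0.16 in HPBCD contralateral and -6.25 ± 0.79 in HPBCD peri-infarct libraries. The latter did not overlap with any contralateral library. They reached -5.65 and so overlapped with the vehicle peri-infarct libraries, which went down to -5.68.

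**Figure D3:**
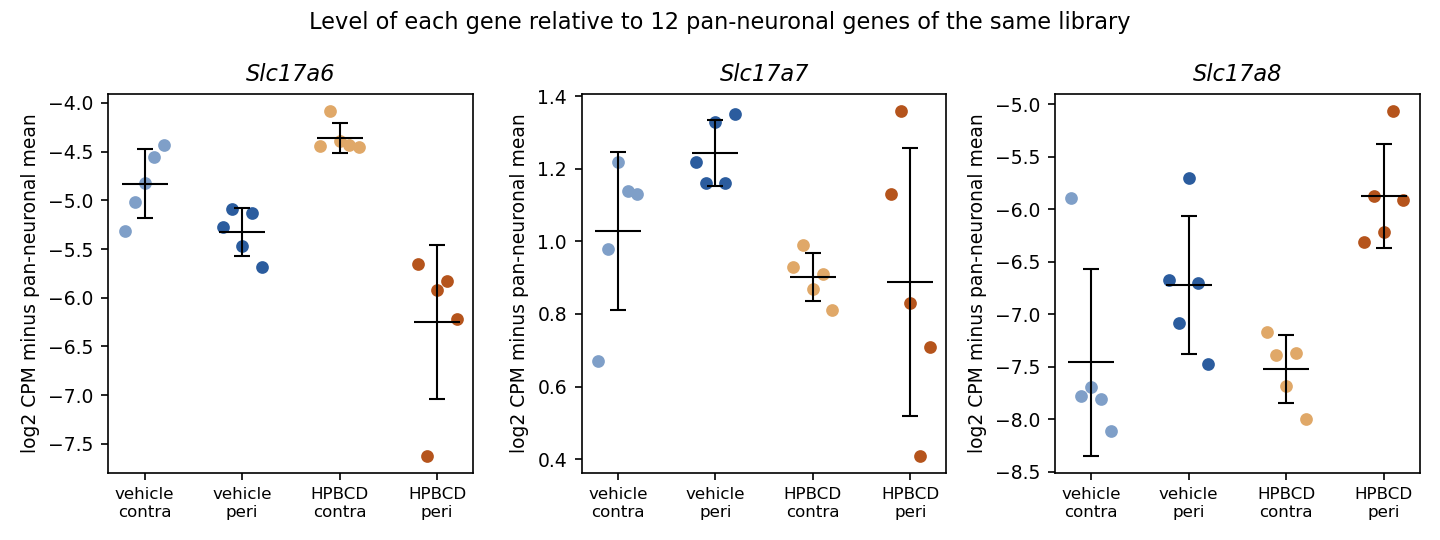
Log2 CPM of each gene minus the mean log2 CPM of 12 pan-neuronal genes in the same library, by group, with 1 point per library and bars for mean ± SD (n = 5). In HPBCD animals Slc17a7 centres at 0.89 beside the infarct and 0.90 contralaterally, Slc17a6 goes from -4.36 contralaterally to -6.25 beside the infarct, and Slc17a8 from -7.52 to -5.87.

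The genes that supply the transporters with glutamate moved in both directions. Of 17 genes of glutamate synthesis and recycling, 6 fell and 4 rose in peri-infarct against contralateral tissue of HPBCD animals, and 5 fell and 3 rose in vehicle animals. Over all genes tested, 24.3% were called lower and 30.3% higher in HPBCD animals, and 9.70% and 10.5% of 15801 in vehicle animals, so the share that rose in HPBCD animals was below that of all genes. Their median log2 fold changes were -0.18 and -0.09, beside 0.03 and 0.01 over all genes. In vehicle animals the counts went down to 3 that fell and 1 that rose without vehicle peri-infarct replicate 1. Of all 15966 genes tested in that fit, 2589 were called, 1227 of them lower, against 3195 called with every library. Among those that fell in HPBCD animals were Gls2, a glutaminase that makes glutamate from glutamine (25.7 to 8.66 CPM, log2 fold change -1.56, edgeR adjusted p = 2.71e-06), and Got1, an aspartate aminotransferase (282 to 148 CPM, -0.93, edgeR adjusted p = 0.000141). Both fell in vehicle animals too, with log2 fold changes of -1.04 and -0.45 (edgeR adjusted p-values 0.0024 and 0.0045). Of the 9 plasma membrane transporters of the list, 3 rose, 1 fell (Slc1a6, a neuronal glutamate transporter, log2 fold change -0.99, edgeR adjusted p = 0.00303) and 5 did not pass. Those that rose were Slc38a2, a glutamine transporter (125 to 278 CPM, 1.15, edgeR adjusted p = 9.32e-05), Slc38a3, which exports glutamine from astrocytes (0.73, edgeR adjusted p = 1.26e-05), and Slc1a3, the glial glutamate transporter GLAST (0.65, edgeR adjusted p = 0.000197). Glul, the glutamine synthetase of astrocytes, had 2630 CPM contralaterally and 2370 CPM beside the infarct (edgeR adjusted p = 0.341).

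Between the treatments in peri-infarct tissue, 3 of these 17 genes fell and 1, Slc38a2, rose (1.12, edgeR adjusted p = 0.0131), where 9.0% of all genes were called lower and 12.4% higher. Slc38a2 kept its call in all 10 fits with 1 library left out, and its interaction of 0.99 was called as well (edgeR adjusted p = 0.0288), though in 13 of 20 such fits. The number of these genes that fell ranged from 0 (with vehicle peri-infarct replicate 1 left out) to 8 (with replicate 2 of the HPBCD peri-infarct group left out), and over all 16428 genes tested in these fits from 471 to 2674.

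Subunits of the vesicular proton pump, on whose gradient the transporters depend, were lower wherever they were called. Of 16 subunit genes, 6 fell in vehicle and 11 in HPBCD animals between the regions, and 12 fell in peri-infarct libraries labelled HPBCD against vehicle, with median log2 fold changes of -0.21, -0.51 and -0.41. Of all genes, 9.70%, 24.3% and 9.0% were called lower in these comparisons. Atp6v1g2, a subunit enriched in neurons, went from 442 to 236 CPM between the regions in HPBCD animals (log2 fold change -0.90, edgeR adjusted p = 0.000875), Atp6v1e1 from 344 to 201 CPM (-0.77, edgeR adjusted p = 3.69e-05) and Atp6v1d from 376 to 226 CPM (-0.74, edgeR adjusted p = 4.75e-05). The pump also acidifies lysosomes in every cell. Between the regions in HPBCD animals the count was 11 or 12 with any 1 library left out, and in vehicle animals it was 3 without vehicle contralateral replicate 2. Over all genes, 3612 to 4390 of 16176 to 16380 were called lower in those HPBCD fits, and 897 of 16023 in that vehicle fit. Between the treatments the count was 14 without vehicle peri-infarct replicate 3, a fit in which 1895 of all 16439 genes were called lower. It was 0 once HPBCD peri-infarct replicate 3 was left out, a fit in which edgeR called 823 genes in all against 3471 with every library. Interactions were called for Atp6v1c1, Atp6v1d, Atp6v1e1 and Atp6v1h, at -0.50 to -0.41, where 4.38% of the 16758 genes tested were called negative and 5.03% positive. The number called was 0 without vehicle peri-infarct replicate 2 and 9 without vehicle peri-infarct replicate 3, fits in which 218 and 1262 of all genes were called negative.

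Other genes of vesicle loading moved in both directions. Of 8 tested in HPBCD animals, leaving aside Slc10a4, which passed the filter through the peri-infarct group where it is high, 6 fell and 1 rose beside the infarct, against 24.3% and 30.3% of all genes. Slc30a3, the zinc transporter of glutamate vesicles, went from 70.9 to 33.2 CPM (log2 fold change -1.09, edgeR adjusted p = 0.0011), and Slc32a1, the GABA transporter, from 99.1 to 77.4 CPM (-0.36, edgeR adjusted p = 0.0341, lost without HPBCD peri-infarct replicate 3 or 4 or HPBCD contralateral replicate 1, 4 or 5). Sv2a, a glycoprotein of most synaptic vesicles, changed by -0.73 (edgeR adjusted p = 0.000514), and Slc6a17, a vesicular transporter of neutral amino acids, by -0.80 (edgeR adjusted p = 0.00659). The gene that rose was Sv2c, a vesicle glycoprotein abundant in the basal ganglia (28.9 to 50.1 CPM, 0.79, edgeR adjusted p = 0.0021). Slc10a4, found in cholinergic and monoaminergic vesicles, had a mean of 0.145 CPM contralaterally, at the floor, and of 2.5 CPM beside the infarct. In peri-infarct tissue, Slc30a3 was lower in libraries labelled HPBCD, at 33.2 against 74.2 CPM (-1.16, edgeR adjusted p = 0.0136), a call kept in 10 of 10 fits with 1 library left out. Of the other SLC17 genes, the lysosomal sialic acid transporter Slc17a5 had 16.2 to 23.9 CPM in single libraries, and the vesicular nucleotide transporter Slc17a9 0.228 to 1.18 CPM. Slc17a1 and Slc17a4 had a count of 0 in every library, and Slc17a2 and Slc17a3 stayed below 0.15 CPM.

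**Figure D4:**
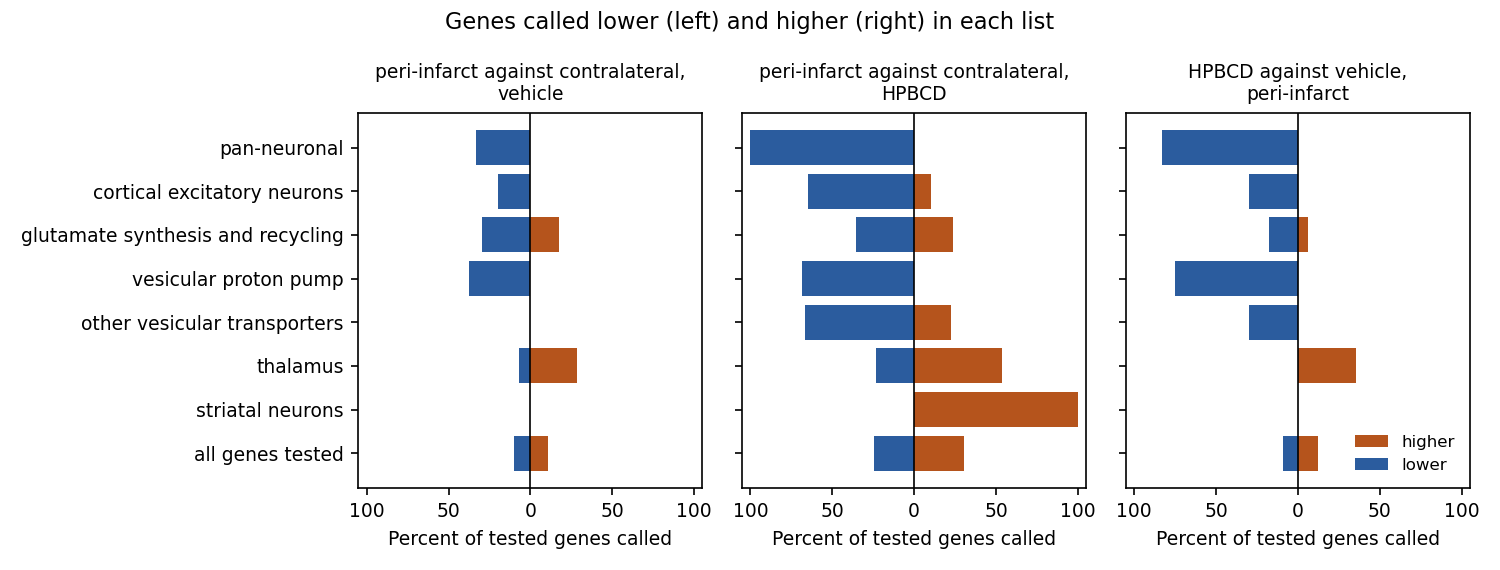
Percent of the tested genes of each list called by edgeR (adjusted p under 0.05), lower to the left and higher to the right, in 3 comparisons, with all genes tested in the lowest row. Pan-neuronal and proton pump genes extend to the left in all 3, and striatal genes to the right in HPBCD animals. The striatal bar there includes Drd2, which passed the filter through the peri-infarct group, where it is high.

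Markers of the cells that use each transporter were measured in the same libraries. Of 20 genes of cortical excitatory neurons, the main users of Slc17a7, 13 fell and 2 rose beside the infarct in HPBCD animals, and 4 fell in vehicle animals. Of all genes, 24.3% fell and 30.3% rose in HPBCD animals and 9.70% fell in vehicle animals. Emx1, a transcription factor of cortical projection neurons, went from 49.6 to 11.9 CPM in HPBCD animals (log2 fold change -2.06, edgeR adjusted p = 2.71e-06), and Lamp5, of upper layers, from 280 to 59.7 CPM (-2.24, edgeR adjusted p = 1.67e-05). The rises were in Bcl11b and Foxp2, which striatal neurons express as well. Between the treatments in peri-infarct tissue 6 fell, beside 9.0% of all genes, from 3 without vehicle peri-infarct replicate 1 to 11 without HPBCD peri-infarct replicate 2, fits in which 471 and 2674 of all 16428 genes were called lower. The lower levels of Slc17a7 and Slc17a6 in HPBCD peri-infarct libraries came with more RNA of other cells: summed reactive astrocyte markers were at 3290 to 6700 CPM, against 750 to 3770 CPM in vehicle peri-infarct and 182 to 394 CPM in contralateral libraries, and fibroblast markers at 856 to 1870 CPM, against 221 to 618 CPM in vehicle peri-infarct libraries. Microglia and macrophage markers summed to 1310 to 2970 CPM and ependymal markers to 111 to 215 CPM there, against 774 to 2370 and 26.4 to 71.3 CPM in vehicle peri-infarct libraries, and oligodendrocyte markers were at 12900 to 19800 against 6200 to 15000 CPM. Between the treatments, 5 of 10 reactive astrocyte, 9 of 10 fibroblast and 6 of 8 ependymal genes were called higher, beside 12.4% of all genes. Only 1 of 12 microglia and macrophage genes and 2 of 9 oligodendrocyte genes were. The part of these cells in the differences of the transporters was not tested.

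Thalamic markers, given here because thalamic neurons use Slc17a6, moved in both directions beside the infarct, and their sum was highest where Slc17a6 was lowest. Their summed level over 15 genes was 213 to 317 CPM in HPBCD peri-infarct, 135 to 197 in vehicle peri-infarct and 97.6 to 122 in contralateral libraries, so the regions did not overlap. Of 13 tested in HPBCD animals, 7 rose and 3 fell beside the infarct, against 30.3% and 24.3% of all genes, so the share that fell was near that of all genes. Zic1 went from 9.39 to 69.6 CPM (log2 fold change 2.89, edgeR adjusted p = 8.6e-06) and Prkcd, of protein kinase C delta, from 9.30 to 35.8 CPM (1.95, edgeR adjusted p = 4.27e-06), whereas Ntng1, an axon guidance gene of thalamic neurons, fell from 14.9 to 7.26 CPM (-1.02, edgeR adjusted p = 0.00869), Grid2ip from 3.1 to 0.97 CPM (-1.67, edgeR adjusted p = 4.17e-05) and Ramp3 from 6.08 to 3.49 CPM (-0.80, edgeR adjusted p = 0.028). The higher sum came mostly from Zic1, Amotl1, Prkcd, Plekhg1 and Synpo2. Several of the genes that rose are also expressed outside the thalamus, and Gbx2, a defining gene of the developing thalamus, was at 0.0276 to 0.0744 CPM in the group means. In vehicle animals 4 of 14 rose and 1 fell, against 10.5% and 9.70% of all genes.

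Slc17a8 was set beside striatal and cholinergic markers, with which it went together across most groups but not within each. The summed striatal level was 794 to 2320 CPM in HPBCD peri-infarct, 396 to 2240 in vehicle peri-infarct and 236 to 318.7 CPM in contralateral libraries other than vehicle contralateral replicate 1, which at 3938 CPM had the highest sum and the highest Slc17a8 level of all. Drd2, which went from 0.629 to 28.5 CPM in HPBCD animals, passed the filter through the peri-infarct group, where it is high, and is left aside. All other striatal genes of the list rose beside the infarct in HPBCD animals, where 30.3% of all genes did. Adora2a went from 2.57 to 81.2 CPM (edgeR adjusted p = 1.11e-06). In vehicle animals the median log2 fold change of all 10 striatal genes was 0.36, and 2.16 once vehicle contralateral replicate 1 was left out. Of the genes of acetylcholine neurons, Slc5a7, the choline transporter, went from 0.865 to 6.59 CPM (log2 fold change 2.90, edgeR adjusted p = 1.66e-06) and Chat, which makes acetylcholine, from 0.371 to 3.27 CPM. Isl1 and Lhx8, transcription factors of cholinergic interneurons, were at 0.0101 and 0.0304 CPM contralaterally, below the floor, and at 4.27 and 1.38 CPM beside the infarct. Chat, Isl1 and Lhx8 passed the filter through the peri-infarct group, where they are high, so they are given without a test and their number is not a result. Of the serotonin genes, Fev and Slc6a4 did not pass the filter. The defining serotonin gene Tph2 had 0.998 CPM contralaterally and 0.638 CPM beside the infarct (edgeR adjusted p = 0.146). Within groups, deviations of Slc17a8 from its group mean had r = 0.82 with those of the striatal list and 0.84 with those of the serotonin and acetylcholine list (a description over 20 libraries, 2 from each animal). These values rest in part on vehicle contralateral replicate 1, without which they were 0.52 and 0.62. HPBCD peri-infarct replicate 2 went the other way, with the lowest striatal sum (793.6 CPM) and the lowest serotonin and acetylcholine sum (9.335 CPM) of its group and the highest Slc17a8 level (7.41 CPM). Without it the r values were 0.91 and 0.89. Of 6 CCK interneuron genes, 3 fell and 2 rose, against 24.3% and 30.3% of all genes, and Cck itself fell from 344 to 155 CPM (-1.14, edgeR adjusted p = 0.000912) while Slc17a8 rose. How much striatal tissue each dissection held was not tested.

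**Figure D5:**
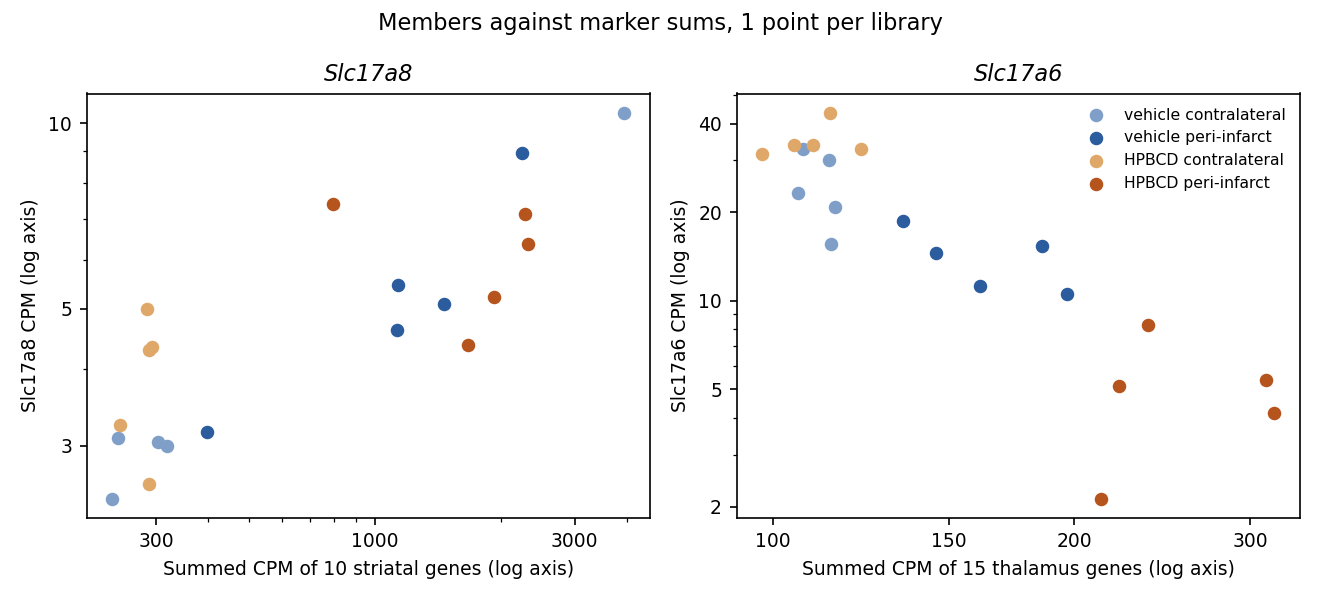
Left, Slc17a8 against the summed level of 10 striatal genes; right, Slc17a6 against the summed level of 15 thalamus genes, both in CPM on log axes, with 1 point per library coloured by group. Slc17a8 is highest (10.4 CPM) in the library with the highest striatal sum (3938 CPM), and Slc17a6 is lowest in the HPBCD peri-infarct libraries, where the thalamus sum is 213 to 317 CPM.

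The genes whose log2 CPM was most like that of each member over the 20 libraries, of 14753 genes with a mean of at least 1 CPM, differed between the members. For Slc17a6 they were Camk2n2, an inhibitor of CaMKII, Car10, Necab3, Brinp3 and Gm11549, with r of 0.96 to 0.97, and 0.71 to 0.80 for deviations from the group means. The latter were 0.5 to 0.71 without HPBCD peri-infarct replicate 2. For Slc17a7 they were Rapgefl1, Syp, which encodes the vesicle protein synaptophysin, Rhof, Fam155a and Scamp5, a carrier protein of synaptic vesicles, with r of 0.97 to 0.98, and 0.93 to 0.95 within groups. For Slc17a8 they were Lingo3, Smpd3, Actn2, Srgap1 and Kcnab1, with r of 0.87 to 0.88, and 0.84 to 0.91 within groups, or 0.59 to 0.79 without vehicle contralateral replicate 1. The members were less like each other, since Slc17a6 and Slc17a7 had an r of 0.69 over all libraries and 0.08 within groups (0.73 without HPBCD peri-infarct replicate 2), and Slc17a8 had -0.58 and -0.48 with the other two.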

How the data were processed

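Polyadenylated RNA of 20 samples was sequenced. Per the labels and methods, the authors made stranded paired libraries, trimmed reads (Trimmomatic 0.32), aligned them to GRCm38 (STAR 2.5.2b) and deposited raw counts per Ensembl gene (HTSeq), whose annotation and strand option are not given in the sources used here. Lines naming no gene held 25.1% to 40.1% of read pairs and were left out. Genes were named by GENCODE M21 (98.16% matched). Groups were tested with the edgeR 4.0.16 quasi-likelihood test (R 4.3.3) with TMM factors, filterByExpr and Benjamini-Hochberg adjustment over all genes, threshold 0.05. Each comparison used its 10 libraries and the interaction all 20. SE is the log2 fold change over the square root of F, and 95% intervals use its t quantile. Log2 CPM has a prior count of 2. Intervals cover the spread between the libraries of a fit. Floors cover counting error only, and reads carry no molecular identifiers. Adjusted p-values of the neuron-relative level cover 8 exact tests.

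Members and gene lists were chosen with earlier results of these data known. Named genes were the members, genes of the 5 pathway and thalamus lists (largest called changes), and the 5 genes most like each member. Other markers were named after their values were seen. Numbers pair regions within a treatment through the animal identifier of the deposited names. Deviations of the 10 pairs had a mean r of 0.113, with 6 over 0.1. Alternatives were DESeq2 1.42.0, limma 3.58.1 voom, RLE and upper quartile factors, other filters, a replicate block, 1 fit of 4 groups, thinned counts and leaving out libraries. Leaving out libraries for gene lists and correlations was added after seeing the data. The tests were checked on simulated data.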

Additional observations from a re-analysis of the deposited data

Results flagged for a closer look

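In groups of 5, a value was singled out when its gap to the nearest other value exceeded 0.71 of the group's range (Dixon's 95% limit), which chance gives in about 1 in 20 groups. Of 36 sets of 5 values, 9 were singled out. The sets are repeated readings of the same 3 genes in the same libraries and depend on each other, so this number is not a test. Slc17a8 in vehicle contralateral replicate 1 stood above the other 4 libraries in all its readings, at 10.4 CPM (others 2.46 to 3.08), 1.17% of the summed level of the 3 genes (0.176% to 0.25%) and -5.89 relative to the neuronal mean (-8.11 to -7.69). HPBCD contralateral replicate 2 had the highest Slc17a6 level of its group, at 43.5 CPM (31.5 to 33.9) and -4.08 relative to the neuronal mean (-4.45 to -4.39), and the lowest share of Slc17a7, at 96.81%. In HPBCD peri-infarct libraries, Slc17a6 of replicate 2 was at -7.62 relative to the neuronal mean (-6.22 to -5.65), and the Slc17a8 share of replicate 4 was 2.44% (0.636% to 1.12%). The Slc17a7 share of vehicle peri-infarct replicate 5 was 99.01%.

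The interaction of region and treatment was -2.00 on the log2 scale for Slc17a6. This value helped choose the family, so it is a description and not a result. Among the genes of the glutamate, proton pump, vesicular transporter and thalamus lists, edgeR called an interaction for Slc38a2 (0.99), Atp6v1c1 (-0.50), Atp6v1d (-0.44), Atp6v1e1 (-0.41), Atp6v1h (-0.48), Slc30a3 (-1.03), Sv2a (-0.54), Ntng1 (-1.23), Plekhg1 (0.85), Zic1 (1.98) and Synpo2 (1.26). Each of these 11 calls was lost in at least 1 of the 20 fits that leave out a library.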

How the results depend on the processing

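Slc17a6 kept its sign and moved by less than the replicate SD in all 40 alternative fits and 60 fits without 1 library. Slc17a7 kept sign and side of the threshold in 38 and 53 of as many fits. Slc17a8 did in 37 and 57, and had no adjusted p in 1 (DESeq2, contralateral treatments). Exceptions were as follows, and the cause was not tested. The Slc17a7 interaction passed with DESeq2 (-0.82) and limma voom (-0.90), and ranged from -1.01 to -0.63 without 1 library. The peri-infarct treatment difference of Slc17a7 ranged from -1.12 to -0.69. Slc17a8 in HPBCD animals was 0.64 in 1 fit of 4 groups, its contralateral treatment difference was 0.18 with limma voom and -0.34 to 0.42 without 1 library, its interaction -0.27 to 0.58 and its region difference in vehicle animals 0.06 to 0.91. With the replicate block, which pairs the regions of an animal, Slc17a7 changed by -1.01 in HPBCD animals (edgeR adjusted p = 0.00557), and no call of the members changed. Between treatments numbers are names only, and the block left Slc17a7 at -1.0 in peri-infarct tissue (edgeR adjusted p = 0.0149).

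Neuron-relative differences without 1 library were, for Slc17a7, 0.13 to 0.26 and -0.13 to 0.11 between the regions in vehicle and HPBCD animals, and -0.47 to -0.24 and -0.22 to -0.08 between the treatments in peri-infarct and contralateral tissue. For Slc17a8 they were 0.48 to 1.12, 1.45 to 1.76, 0.65 to 1.11 and -0.23 to 0.33. With the longest transcript as length, mean shares were 0.785%, 1.27% and 1.90% for Slc17a6 in vehicle peri-infarct, vehicle contralateral and HPBCD contralateral libraries, 98.9%, 98.5% and 97.9% for Slc17a7, and 0.194% for Slc17a8 in HPBCD contralateral libraries.

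Called genes in all went from 3195 to 5065 (vehicle regions), from 3471 to 6012 (peri-infarct treatments) and from 1577 to 4110 (interaction) with limma voom, and the latter to 2514 with DESeq2. Contralaterally DESeq2 called 56 and a fit with no filter 2. Without 1 library the counts were 2000 to 3920, 823 to 5339 and 529 to 3121. Counts per library were 46 to 189 for Slc17a8, 42 to 862 for Slc17a6 and 5810 to 31641 for Slc17a7.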
